A study of Rattus norvegicus with 2 samples.

Results

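The neuropeptide genes of nociceptors were compared between the dorsal root ganglia (DRGs) of the tumor side and of the control side of rats with a carcinoma growing in 1 tibia. The set holds 10 peptide or granin genes listed as made by sensory neurons (SNs) without injury. The arrays do not bear this out for Pdyn, whose signals were very low on both sides. The 10 genes are Calca, Calcb, Tac1, Sst, Adcyap1, Nmb, Cck, Penk, Pdyn and Scg2. They were listed by name and not picked by a measured value, though earlier results of these data were known when the list was made. All 10 were measured, by 14 probe sets, among 14217 genes with a probe set of their own, and a gene with several probe sets was represented by the brightest one. All samples came from female Sprague-Dawley rats, 4 weeks old per the methods, whose right tibial marrow was inoculated with 100000 cells of the bone-destroying pulmonary carcinoma line IP-B12. The tumor group is DRG RNA of the inoculated side at day 14 and the control group is DRG RNA of the left side, so that both groups come from tumor-bearing rats. No sham inoculation of the left tibia is described, and neither the number of rats nor the spinal level of the ganglia is stated for the arrays, so tumor and procedure cannot be told apart. Each group is 1 array, which leaves no replicate error and allows no test, and every difference given here describes these 2 arrays.

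DRGs hold the cell bodies of the neurons that carry touch, temperature and pain from the limb, together with satellite glia and Schwann cells. Nociceptors are the neurons among them that respond to noxious stimuli, and those called peptidergic make small signaling peptides. Each peptide is cut from a longer precursor in dense-core granules, which travel along the axon and release their content both in the spinal cord and in the innervated tissue. In bone, fibers that contain calcitonin gene-related peptide (CGRP) and substance P are the main sensory supply. CGRP served the study as a marker of SNs, beside peripherin. After nerve injury some of these genes are known to be lowered and others, such as those of galanin and neuropeptide Y, to be induced.

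Many neuropeptide genes carry a cyclic AMP response element, the binding site of CREB, in their promoter. Phosphorylated CREB, beside phosphorylated ERK1/2, was measured by Western blot as a sign of SN excitation in the mice of the same work. The letters TGACGTCA, which read the same on both strands, and the shorter TGACG and CGTCA, which are each other's reverse complement and both lie inside the full motif, were searched in the RefSeq promoters of the build GRCr8, from 250 bases before to 50 after an annotated start. Promoters of 7 of the 10 genes were matched, those of Calca, Tac1, Sst, Adcyap1, Nmb, Pdyn and Scg2. The full motif was in 2 of these 7, Sst and Scg2, against 612 of all 33469 promoters (1.83%), and any of the 3 motifs was in 4 of 7, against 7097 (21.2%). Among the 8078 genes with a matched promoter whose signal reached the median of at least 1 array, as 6 of these 7 did, the full motif was in 280 (3.47%) and any of the 3 in 2757 (34.1%). The 4 stretches are shown because they hold those matches, with the matching letters in capitals and each written 5′ to 3′ on the strand of its gene.
Sst: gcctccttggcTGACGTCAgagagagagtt
Scg2: ggctgagccggTGACGTCAgcgaggaatgc
Calca: gaagcaccgaggTGACGcaatctgtctggg
Tac1: tccctaaaattgCGTCAtttcgaacccaat
They lie at chr11:90461537-90461566 on the plus strand for Sst, at chr9:88256971-88257000 on the minus strand for Scg2, at chr1:178317624-178317653 on the minus strand for Calca, and at chr4:36645365-36645394 on the plus strand for Tac1. The motif begins 123 bases before the annotated start in Scg2, 112 bases before it in Calca and 206 bases before it in Tac1, and at base 3 after it in Sst. A match of letters is a description and not a measured binding site, and windows of Adcyap1, Nmb and Pdyn without these letters say nothing about the factor.

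Signals are MAS5 intensities on a linear scale, as deposited. Ratios are tumor side over control side on the log2 scale, where 1 is a fold of 2. The control-side array had a median of 69.0 and the other array one of 72.7, and a gene met the signal rule if it reached the median on at least 1 array. Of the 14217 genes 9695 did so, with a median log2 ratio of 0.08, so that a log2 ratio near 0.08 is that of the middle gene and not a difference. Of the 10 peptide genes 9 met the rule and Pdyn did not. Signals of different probe sets depend on their probes and were not ranked against each other.

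**Figure D1:**
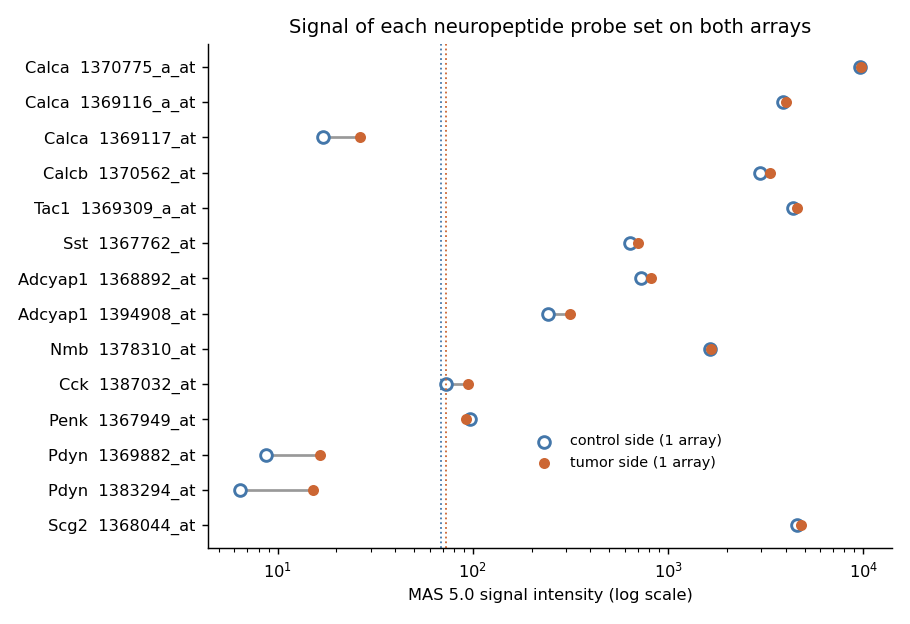
Signal intensity (log scale) of each of the 14 probe sets of the 10 genes on the control side (open circles) and the tumor side (filled circles), with the array medians of 69.0 and 72.7 as dotted lines. Circles of the bright probe sets lie almost on each other, and those of Pdyn and of the third Calca probe set lie farther apart at low signal.

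Of the CGRP genes, Calca had nearly the same signal on both sides and Calcb was somewhat higher on the tumor side under all 3 scalings tried. Calca, which encodes calcitonin and alpha-CGRP by alternative splicing, had a signal of 9589 in DRGs of the control side and 9765 in those of the tumor side, read by its brightest probe set, 1370775_a_at. This is 1.83% higher on the tumor side, a log2 ratio of 0.03. The ratio became -0.06 with median-centred ratios and -0.02 after loess, and was 0.04 after quantile normalization. A second Calca probe set, 1369116_a_at, had 3861 and 3997, a log2 ratio of 0.05. The third, 1369117_at, had 17.2 and 26.3, below both array medians, and its log2 ratio of 0.62 stands apart from those of the bright probe sets of the same gene. The sources used here do not say which spliced transcript each probe set reads, so that no value is assigned to calcitonin or to CGRP separately. Calcb, which encodes beta-CGRP and has no protein-coding gene between it and Calca in GRCr8, had 2948 and 3344 on its only probe set, 1370562_at. That is 13.4% higher on the tumor side, a log2 ratio of 0.18 that was 0.10 after quantile normalization, 0.10 after centring and 0.11 after loess. As the transcripts of Calca and Calcb are closely related, how far their probes keep them apart was not tested.

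Tac1, the precursor gene of substance P and neurokinin A, had 4385 in the control and 4546 in the tumor group (1369309_a_at). The log2 ratio of 0.05 turned to -0.01 after quantile normalization and loess and to -0.03 after centring. Its signal was thus close to equal on the sides, as that of Calca was. Scg2, the gene of secretogranin II, a granin of dense-core granules and the precursor of secretoneurin, had 4573 and 4776 (1368044_at). Its log2 ratio was 0.06, and it was -0.02 with centred ratios, 0.02 after quantile normalization and 0.002 after loess.

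The ratios of Sst and Adcyap1 lay a little above that of the middle gene. Sst, the gene of somatostatin, an inhibitory peptide that marks a small class of itch-related neurons in DRGs, had 641 and 703 (1367762_at), a log2 ratio of 0.13. Adcyap1, the gene of the peptide PACAP, had 727 and 812 by 1368892_at, the brighter probe set, and 241 and 314 by 1394908_at, log2 ratios of 0.16 and 0.38. Both probe sets of Adcyap1 were higher on the tumor side, also under each scaling, and their mean was 0.27. Nmb, the gene of neuromedin B, a bombesin-like peptide of nociceptors, had 1633 and 1664 (1378310_at). Its log2 ratio of 0.03 was below that of the middle gene and became -0.06 after quantile normalization and centring and -0.05 after loess.

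Among the peptides of low signal, Cck was higher on the tumor side and Penk slightly lower. Cck, the gene of cholecystokinin, which is scarce in intact rat DRGs and known to be induced by nerve injury, had 72.7 in the control and 94.1 in the tumor group (1387032_at). This is 29.5% higher, a log2 ratio of 0.37, and the largest among the 9 genes that met the signal rule, but the control-side signal lay just above that array's median. Penk, the precursor gene of the enkephalins, had 96.6 and 92.0 (1367949_at), a log2 ratio of -0.07. It was the only one of the 10 with a lower signal on the tumor side as deposited. Its ratio was -0.13 after quantile normalization, -0.15 after centring, -0.14 after loess and -0.06 with the pseudocount. That the sign held adds no support, as centring lowers every ratio and a pseudocount cannot change a sign. Pdyn, the precursor gene of the dynorphins, had 8.69 and 16.4 on 1369882_at and 6.38 and 15.2 on 1383294_at. These are folds of 1.89 and 2.39 at signals far below the array medians, not far above the trp control probe sets, which have no target in rat RNA and reached at most 5.39 in the control and 4.63 in the tumor group.

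None of the 9 genes above the signal rule reached a fold of 2 up or down, where 31 of 9695 genes did (0.32%). None reached a fold of 1.5, where 187 did (1.93%), and 1, Cck, had a log2 ratio beyond 0.32 in size, where 1023 had one (10.6%). The median log2 ratio of the 9 was 0.06, with a range from -0.07 to 0.37, beside 0.08 for all genes above the rule, of which 10% lay below -0.13 and 10% above 0.28. Of the 9, 4 lay above the median of all genes and 5 below it. As deposited, 8 of the 9 had a higher signal on the tumor side, but so had 70.9% of all genes above the rule, and the tumor-side array was brighter as a whole. With Pdyn included, the median of the 10 was 0.10.

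The scatter of the arrays gives a scale for these ratios. For each probe set, the 500 others nearest in mean log2 signal were taken. At the brightness of Calca, the central 95% of them lay between -0.09 and 0.18, and at that of Tac1 between -0.08 and 0.20. At the signal of Cck this range was from -0.51 to 0.61, at that of Penk from -0.49 to 0.63, and at that of the brighter Pdyn probe set from -2.20 to 2.52. Sst, Adcyap1 and Nmb lay between, with ranges from -0.14 to 0.34, from -0.16 to 0.32 and from -0.11 to 0.29, while that of Scg2 ran from -0.09 to 0.20. All 14 probe sets of the 10 genes lay inside their range. The closest to its edge was the second Adcyap1 probe set, with 0.38 in a range from -0.32 to 0.43 and above 96.6% of its neighbors, followed by Calcb, with 0.18 in a range from -0.09 to 0.24 and above 91.4%. Another scale is how far probe sets of 1 gene differ in their log2 ratio, an SD that was 0.04 at the signal of Calca and 1.13 at that of Pdyn. By it, 8 of the 10 genes lay within 1 SD of the median of their neighbors. The exceptions were Calcb, 0.10 above that median with an SD of 0.06, and Cck, 0.29 above it with an SD of 0.29. These are technical spreads within 1 pair of arrays and do not replace the variation between rats.

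**Figure D2:**
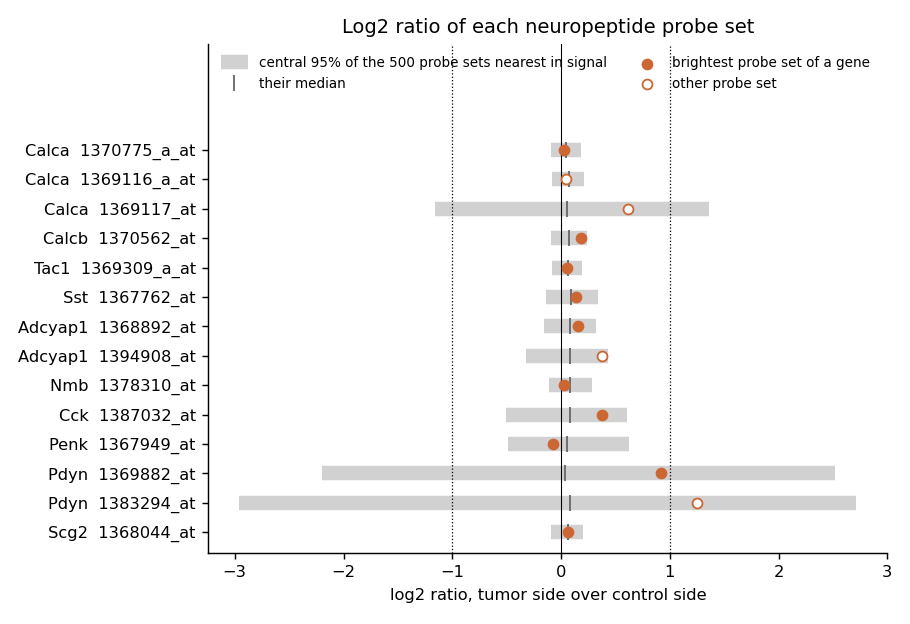
Log2 tumor-to-control ratio (x axis) of the 14 probe sets, with filled circles for the brightest probe set of a gene and open circles for the others, grey bars for the central 95% of the 500 probe sets nearest in signal, ticks for their median and dotted lines for a fold of 2. All 14 circles lie on their bars, which widen from bright probe sets such as those of Calca to dim ones such as those of Pdyn.

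The enzymes and granule proteins that make and store the peptides were measured with little difference as well. All 19 measured genes of peptide processing and the dense-core granule met the signal rule, none differed by a fold of 1.5, and their median log2 ratio was 0.03. The largest ratio belonged to Pcsk2, a convertase that cuts precursors at paired basic residues, with 115 and 157 (log2 ratio 0.45). Furin, a convertase of the secretory pathway in most cells, had 145 and 120 (-0.27), and Cpd, a carboxypeptidase that trims the cut ends, had 608 and 547 (-0.15). Pcsk1n, which encodes an inhibitor of the related convertase PC1, had 497 and 545, a log2 ratio of 0.13. Of the 19, 6 lay above the median of all genes and 13 below it.

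Receptors of these peptides act on other neurons, vessels and glia, and few were well measured in whole DRGs. Of 22 measured, 6 met the signal rule, with a median log2 ratio of 0.05 and none past a fold of 1.5. Ramp2, an accessory protein that turns the CGRP receptor subunit Calcrl into a receptor for adrenomedullin, had 475 and 561 (0.24), and Crcp, a component of CGRP receptor signaling that also belongs to RNA polymerase, had 601 and 691 (0.20). Ramp3 had 82.7 and 74.5 (-0.15), and Oprk1, the kappa opioid receptor to which dynorphins bind, had 115 and 127 (0.14) on its brightest probe set. Among the 16 below the rule, 6 reached a fold of 2 upward in the tumor group, Calcr, Oprm1, Sstr4, Tacr2, Tacr3 and Vipr2, and none downward, while of all 4522 genes below the rule 600 did so upward (13.3%) and 509 downward. In the control group these 6 had signals from 0.57 to 10.4. Those of Oprm1, Tacr2 and Tacr3 did not exceed the trp probe sets, so that no fold is given for them. Oprm1, the mu opioid receptor, had 3.33 and 31.7 on one probe set and 8.30 and 11.5 on the other, and such disagreement is the reason that dim values are only listed.

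Peptide-degrading peptidases, inside cells or on their surface, showed small ratios in both directions. Of 11 measured, 7 met the rule, with a median of 0.07. Npepps, a cytosolic aminopeptidase, had 399 and 304 (-0.39), the largest of these ratios in size, and Enpep, an aminopeptidase of vessels, had 208 and 254 (0.29). Mme, which encodes neprilysin, the membrane peptidase that cleaves substance P and enkephalins, had 239 and 273 (0.19), and Nln, a peptidase that cleaves neurotensin, had 113 and 120 (0.09).

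Among other peptide genes, Npy and Bdnf had log2 ratios larger in size than any of the 9 above the signal rule. Of 23 measured neuropeptide, hormone and neurotrophin genes outside the set, 7 met the rule, with a median log2 ratio of 0.16 and none past a fold of 1.5. Their ratios ran from -0.56 to 0.33, and that of Nppb, the gene of a natriuretic peptide of itch-related neurons, was 0.03 at 294 and 299. Npy, the gene of neuropeptide Y, which is known to be induced in large DRG neurons after nerve injury, had 350 and 238 (log2 ratio -0.56), and Bdnf, the neurotrophin stored in the granules of peptidergic neurons, had 524 and 357 (-0.55). Gal, the gene of galanin and the most used peptide marker of injured SNs, had 181 and 216 (0.25). Nmu, the gene of neuromedin U, had 70.3 and 88.2 (0.33), with the control-side signal just above that array's median. Npy and Bdnf were lower and Gal and Nmu higher on the tumor side as deposited and under all 3 scalings tried. The scalings mainly take out the 0.08 of the middle gene, so kept signs of ratios this large add no support. The spread at like signal was not computed for these genes.

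**Figure D3:**
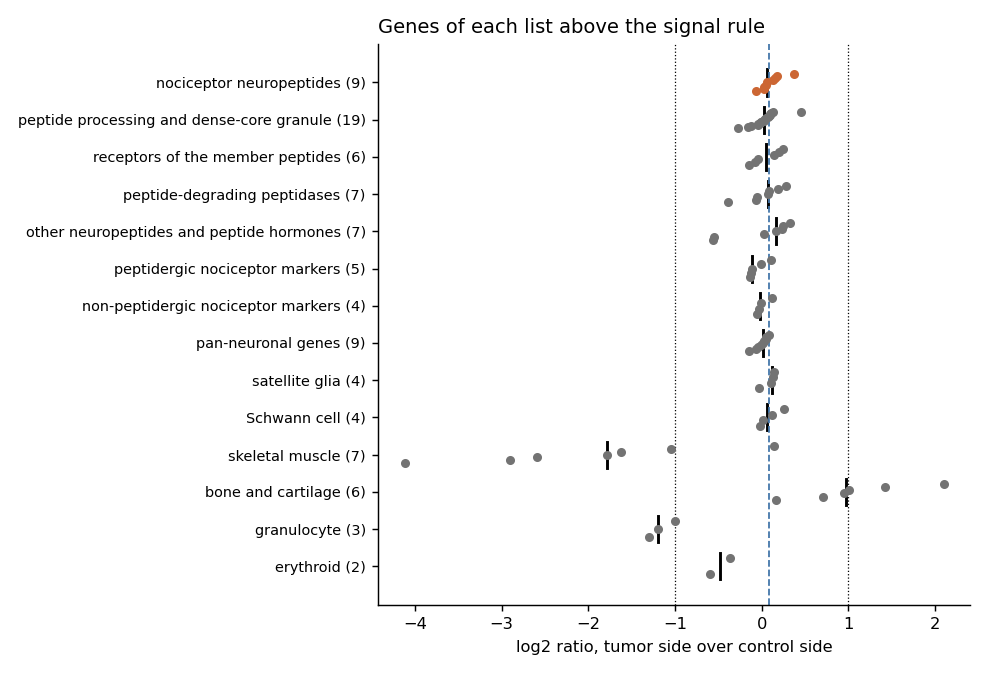
Log2 tumor-to-control ratio (x axis) of the genes of each list that met the signal rule, 1 point per gene with their number in brackets, the 9 neuropeptide genes in color, black bars at list medians, a dashed line at the all-gene median of 0.08 and dotted lines at a fold of 2. The neuropeptide genes lie from -0.07 to 0.37, and the lists that reach a fold of 2 are those of skeletal muscle, bone and cartilage, and granulocytes.

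Genes that mark neurons were read as well, though with 1 array per side their signals do not measure the neuron content of a side. The 10 pan-neuronal genes had a summed signal of 55611 and 56013, 0.72% higher on the tumor side as deposited. Their median log2 ratio was 0.02, and it was -0.07 after centring. The summed signal of the 10 peptide genes was 24676 and 25813, 4.61% higher. These sums still hold the log2 ratio of 0.08 of the middle gene, and bright probe sets such as that of Calca weigh most in them. Of 7 measured genes listed as markers of peptidergic nociceptors 5 met the rule, with a median log2 ratio of -0.11. Trpv1, the capsaicin receptor, had 996 and 916, Scn9a had 4855 and 4436, Scn10a had 1256 and 1167, and Scn11a had 2024 and 2176. The last 3 are sodium channels of nociceptors and not of the peptidergic class alone. Of 7 measured genes listed as markers of non-peptidergic nociceptors 4 met the rule, with a median of -0.02. These list medians thus do not compare the classes of nociceptors. P2rx3, an ATP receptor, had 2107 and 2292, Ret, the receptor of the GDNF family, had 4674 and 4507, and its co-receptors Gfra2 and Gfra1 had 695 and 679, and 688 and 687. In RNA of whole ganglia, fewer neurons of a type and less RNA per neuron cannot be told apart. Satellite glia markers (4 above the rule) had a median of 0.12 and Schwann cell markers (4 above the rule) of 0.07.

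Several markers of muscle, bone and granulocytes differed by more than any peptide gene above the signal rule, though not every marker did. Of 8 skeletal muscle genes 7 were lower on the tumor side, with a summed signal of 1116 and 329, and the exception, Myh1, a myosin heavy chain gene, had 1583 and 1742. Of 7 bone and cartilage genes 6 were higher, with a sum over all 7 of 1120 and 2151. Of 5 granulocyte genes 4 were lower, with a sum over all 5 of 1167 and 561. All 3 erythroid genes were lower, with 4282 and 3314, most of it from the globin gene Hbb, whose log2 ratio of -0.36 was no larger in size than that of Cck. No marker of these 4 lists was listed at 0. Their part in the ratios of the peptide genes was not tested.

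The choice of scaling decided the sign of 4 of the 10 ratios. Median-centred ratios turned Calca, Tac1, Nmb and Scg2 from just above to just below 0, loess turned Calca, Tac1 and Nmb, and quantile normalization turned Tac1 and Nmb. Calcb, Sst, Adcyap1, Cck and Pdyn were higher on the tumor side under all alternatives, and Penk was lower under all. Such kept signs add no support. The scalings mainly take out the 0.08 of the middle gene, and a pseudocount cannot change a sign. The widest range belonged to Calca, from -0.06 after centring to 0.62 where probe sets with an a, s or x in their suffix were left out and the dim one alone remained. Pdyn followed, from 0.48 with the pseudocount to 1.09 with the mean over both probe sets.

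**Figure D4:**
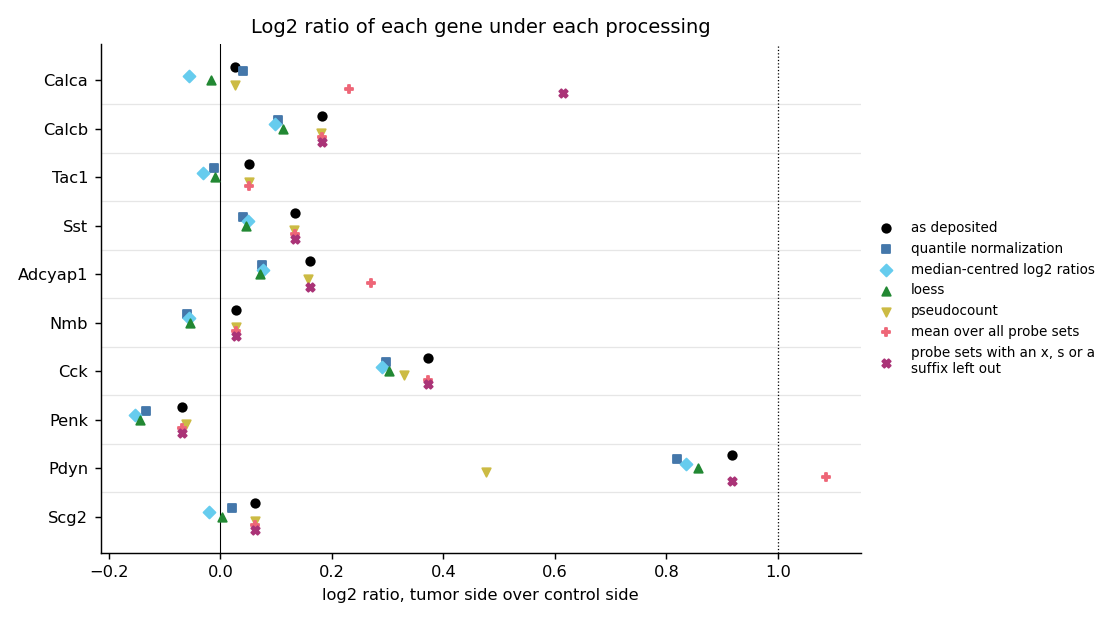
Log2 tumor-to-control ratio (x axis) of each of the 10 genes as deposited and under 6 other ways of processing, 1 symbol each, with the solid line at 0 and the dotted line at a fold of 2. The symbols of Calca, Tac1, Nmb and Scg2 fall on both sides of 0, those of Penk lie below 0, and the mean over both Pdyn probe sets, at 1.09, is the only one past the dotted line.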

How the data were processed

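RNA of tumor-side and control-side DRGs, 100 ng of total RNA each, was hybridized to 1 Affymetrix rat genome array per side. The authors computed signal intensity values with MAS5 at default settings, and the deposited intensity values, 31099 probe sets per array, were used on their linear scale without a pseudocount. The genome build and the scaling target are not given in the sources used here. Of 31042 probe sets beside 57 control probe sets, 20826 have 1 gene symbol in the platform annotation, and all 10 genes kept their symbol in RefSeq (GRCr8). With 1 array per group the precision is not known, and no p-values were computed.

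The genes, the other lists and the naming rule (all probe sets of the 10 genes, and up to 4 genes per other list with the largest ratios above the signal rule) were chosen with earlier results of these data known. Dim receptors, Nppb and Myh1 were named after their values were seen, and markers of glia, muscle, bone and blood are given mainly by list. Mylpf of the muscle list was matched as Myl11 through synonyms. As alternatives, log2 ratios were median-centred, fitted by loess (span 0.3) or taken after quantile normalization. Further ones were a pseudocount of 11.1 (percentile 20 of all signals) and the mean over probe sets. Others were leaving out probe sets with an a, s or x in their suffix, other signal filters and lower fold thresholds. The functions were tested on simulated data. Tables were handled with pandas 2.3.3 and numpy 2.4.6 in Python 3.11.15, loess was from statsmodels 0.14.6, and plots were drawn with matplotlib 3.10.9.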

Additional observations from a re-analysis of the deposited data

How the results depend on the processing

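No gene of the 9 above the signal rule passed a fold of 2 under any scaling, probe set choice or signal filter tried, and as deposited none passed a fold of 1.5 and 1 had a log2 ratio beyond 0.32. The median log2 ratio of the members, 0.06 as deposited, was -0.021 with median-centred ratios and within the spread of same-gene probe sets otherwise. Of 59 values of single genes under the alternatives, 43 moved by less than that spread and 16 by more. With median-centred ratios these were Calca (-0.057), Calcb (0.098), Tac1 (-0.031), Nmb (-0.056) and Scg2 (-0.021). After loess they were Calca (-0.018), Calcb (0.11), Tac1 (-0.0093), Nmb (-0.054) and Scg2 (0.0021). After quantile normalization they were Calcb (0.10), Tac1 (-0.012) and Nmb (-0.060). The mean over all probe sets gave 0.23 for Calca and 0.27 for Adcyap1. Without probe sets of an a, s or x suffix, Calca was 0.62 on its dim probe set. Centring takes the same 0.08 from every gene by construction. Tac1 has no value without probe sets of an a, s or x suffix. Of the medians of the other lists, 89 moved by less than the spread and 15 by more, among them that of skeletal muscle, which was -1.78 as deposited and -0.45 where both signals had to reach the array median. No paired analysis was possible because there is only 1 array in each group. Low signal limits Cck, Penk and above all Pdyn, whose ratios scatter most.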

Other observations

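Genes with the cyclic AMP response element in their promoter had a median ratio near that of other genes. Of the genes above the signal rule with a matched promoter, 280 held the full motif and had a median log2 ratio of 0.07, with 10% below -0.15 and 10% above 0.24, and 3 of them (1.07%), 2 higher and 1 lower, passed a fold of 1.5. The 5321 genes with none of the 3 motifs had a median of 0.08, with 10% below -0.14 and 10% above 0.29, and 71 of them higher and 41 lower (2.10%) passed a fold of 1.5, as did 1.49% of the 2477 genes with part of the motif. These shares were not tested against each other. These are descriptions of 1 pair of arrays, and whether CREB bound or acted at any of these promoters was not tested.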
